A study of Mus musculus with 8 samples.

Results

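The genes described here are the transcription factors Etv1, Etv4 and Etv5, the Sprouty genes Spry1, Spry2 and Spry4, the Spred genes Spred1 and Spred2, and the phosphatase genes Dusp4 and Dusp6, 10 of the 15358 genes in the deposited table, taken by symbol. All 10 were in the table and passed the filter on low counts. RNA-seq was done on whole ventricle of mouse hearts at embryonic day 14.5. Control embryos were Lem2 f/f, with both alleles of Lem2 (listed as Lemd2, which encodes a LEM-domain protein of the nuclear envelope) floxed, and conditional knockout (cKO) embryos were XMLC2V; Lem2 f/f, with a Cre transgene added to the same floxed alleles. The labels give the Cre by the name XMLC2V alone, without the cells in which it acts, and the design text calls the controls littermates. Deposited counts of 3 control and 4 cKO libraries were compared. Control replicate 4 was not analysed here.

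Receptor tyrosine kinases on the cell surface, among them the FGF and ERBB receptors, switch on the small GTPase RAS, which passes the signal through RAF and MEK to the kinase ERK. ERK activity raises the transcription of its own inhibitors as well as of its effectors. Etv1, Etv4 and Etv5 form the PEA3 group of ETS transcription factors and are among the effectors, Sprouty and Spred proteins dampen the pathway at or above RAF, and the dual-specificity phosphatases DUSP4 and DUSP6 remove the activating phosphates from ERK. In the mouse heart ETV1 is known for its role in fast-conducting atrial and conduction-system myocardium. FGF and neuregulin signals acting through ERK are known to drive growth of the ventricular wall before birth.

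The libraries held 28921922 to 39351262 counts, and the 10 genes between 338 and 4139 counts per library, so that counting error at the lowest count was 1.84% for Spred1 and 5.44% for Dusp4. Lemd2, the targeted gene, lay at 36.8, 34.4 and 36.4 CPM in control (CPM are counts scaled to a common library size with TMM) against 18.5, 17.1, 16.3 and 13.7 CPM in cKO. Cardiomyocyte markers such as Myh7, Tnnt2 and Myl2 were abundant in every library, and their summed level overlapped between the groups (28360 to 30930 CPM in control and 25250 to 30630 CPM in cKO). Xist, the RNA of the inactive X chromosome, was abundant in cKO replicates 3 (1324 CPM) and 4 (1102 CPM) and at most 0.504 CPM elsewhere. All 3 controls thus share the sex of cKO replicates 1 and 2, so sex differs between the groups, and the called genes among the 10 and in the lists are given with and without the Xist-expressing pair. The titles carry the codes F169 (2 control and 3 cKO libraries) and F191 (1 of each), whose meaning is not given in the labels.

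The promoter windows of genes that rose, Etv5, Spred1 and Dusp6, are shown with those of their relatives Etv1 and Spred2, which were not called, to set family members side by side. RefSeq (build GRCm38.p6) held windows of 300 bases, from 250 before to 50 after the start of transcription, for 7 of the 10 genes, not for Etv4, Spry4 or Dusp4. Of the 2 windows each that it gives for Etv5 and Etv1, the one nearest the annotated start of the gene was taken. They lie at chr16:22439521-22439820 (minus strand) for Etv5, chr12:38779832-38780131 (plus) for Etv1, chr2:117120821-117121120 (plus) for Spred1, chr11:19924192-19924491 (plus) for Spred2 and chr10:99262981-99263280 (plus) for Dusp6, each read 5′ to 3′ along the gene. Capitals mark the short core of ETS sites, CGGAAG, on either strand.
Etv5: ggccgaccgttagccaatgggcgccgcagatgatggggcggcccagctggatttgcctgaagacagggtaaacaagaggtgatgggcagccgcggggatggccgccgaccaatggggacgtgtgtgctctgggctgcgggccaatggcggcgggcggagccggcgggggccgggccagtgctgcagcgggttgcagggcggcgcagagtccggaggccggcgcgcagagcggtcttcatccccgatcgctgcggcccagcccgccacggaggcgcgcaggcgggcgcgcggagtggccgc
Etv1: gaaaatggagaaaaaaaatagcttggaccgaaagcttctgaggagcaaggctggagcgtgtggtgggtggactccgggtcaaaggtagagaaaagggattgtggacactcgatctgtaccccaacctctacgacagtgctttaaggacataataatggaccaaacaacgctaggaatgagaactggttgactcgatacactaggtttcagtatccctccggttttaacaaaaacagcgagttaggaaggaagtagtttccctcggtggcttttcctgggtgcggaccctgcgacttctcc
Spred1: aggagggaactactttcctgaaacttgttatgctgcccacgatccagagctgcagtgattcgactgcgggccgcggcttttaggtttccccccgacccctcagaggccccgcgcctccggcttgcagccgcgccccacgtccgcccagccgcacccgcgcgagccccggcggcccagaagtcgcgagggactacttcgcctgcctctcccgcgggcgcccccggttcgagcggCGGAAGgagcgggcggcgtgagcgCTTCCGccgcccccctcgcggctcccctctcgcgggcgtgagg
Spred2: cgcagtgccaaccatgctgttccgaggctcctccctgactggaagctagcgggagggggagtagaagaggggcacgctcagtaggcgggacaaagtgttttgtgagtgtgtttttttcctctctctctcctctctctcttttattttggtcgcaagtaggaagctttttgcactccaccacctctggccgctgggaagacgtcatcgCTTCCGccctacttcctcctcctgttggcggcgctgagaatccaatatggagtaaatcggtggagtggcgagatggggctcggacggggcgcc
Dusp6: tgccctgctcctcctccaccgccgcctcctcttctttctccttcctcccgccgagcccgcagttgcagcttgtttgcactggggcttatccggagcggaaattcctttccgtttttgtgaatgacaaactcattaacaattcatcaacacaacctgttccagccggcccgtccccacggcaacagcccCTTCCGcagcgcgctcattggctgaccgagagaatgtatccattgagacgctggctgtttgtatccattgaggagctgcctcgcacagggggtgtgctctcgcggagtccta

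The short core was found 2 times in the Spred1 window, at bases -17 and 8 from the start of transcription, once in that of Spred2 (-43) and once in that of Dusp6 (-62). It was absent from the windows of Etv5, Etv1, Spry1 and Spry2, and 16.9% of all 32851 windows held it. The longer ETS site CCGGAAGT (in 3.89% of all windows), the AP-1 site TGANTCA (7.81%), the CRE TGACGTCA (1.79%) and the CArG box (1.63%), searched on both strands, had no match in any of the 7. The short core was picked after the windows had been seen, and it is contained in the longer site. GC content was 74.0% in the Etv5 window and 48.7% in that of Etv1, against a median of 52.7% over all windows.

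Etv4, Etv5, Spred1 and Dusp6 rose in cKO ventricle, by 1.394-, 1.403-, 1.149- and 1.23-fold (edgeR quasi-likelihood test, adjusted over 14887 genes at a threshold of 0.05). Thus 4 of the 10 genes were called higher and 0 lower, where 1.09% of all genes tested were called, 0.766% higher and 0.322% lower. DESeq2 called 5 higher, the same 4 and Spry4, against 2.94% of all genes. At an unadjusted p under 0.05 by edgeR 7 were higher and 0 lower, against 9.4% and 8.5% of all genes. In 6 of the 10, the 4 called and Spry4 and Dusp4, every cKO library lay above every control, against 8.67% of all genes, and in 0 did every cKO library lie below, against 8.28%. The median log2 fold change of the 10 was 0.26, against -0.01 over all genes, and 9 of 10 were positive, against 47.9% of all genes. The genes were chosen with earlier results of these libraries known, so these counts describe them. In bulk tissue a change in the share of cells that express a gene and a change in its level per cell cannot be told apart.

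**Figure D1:**
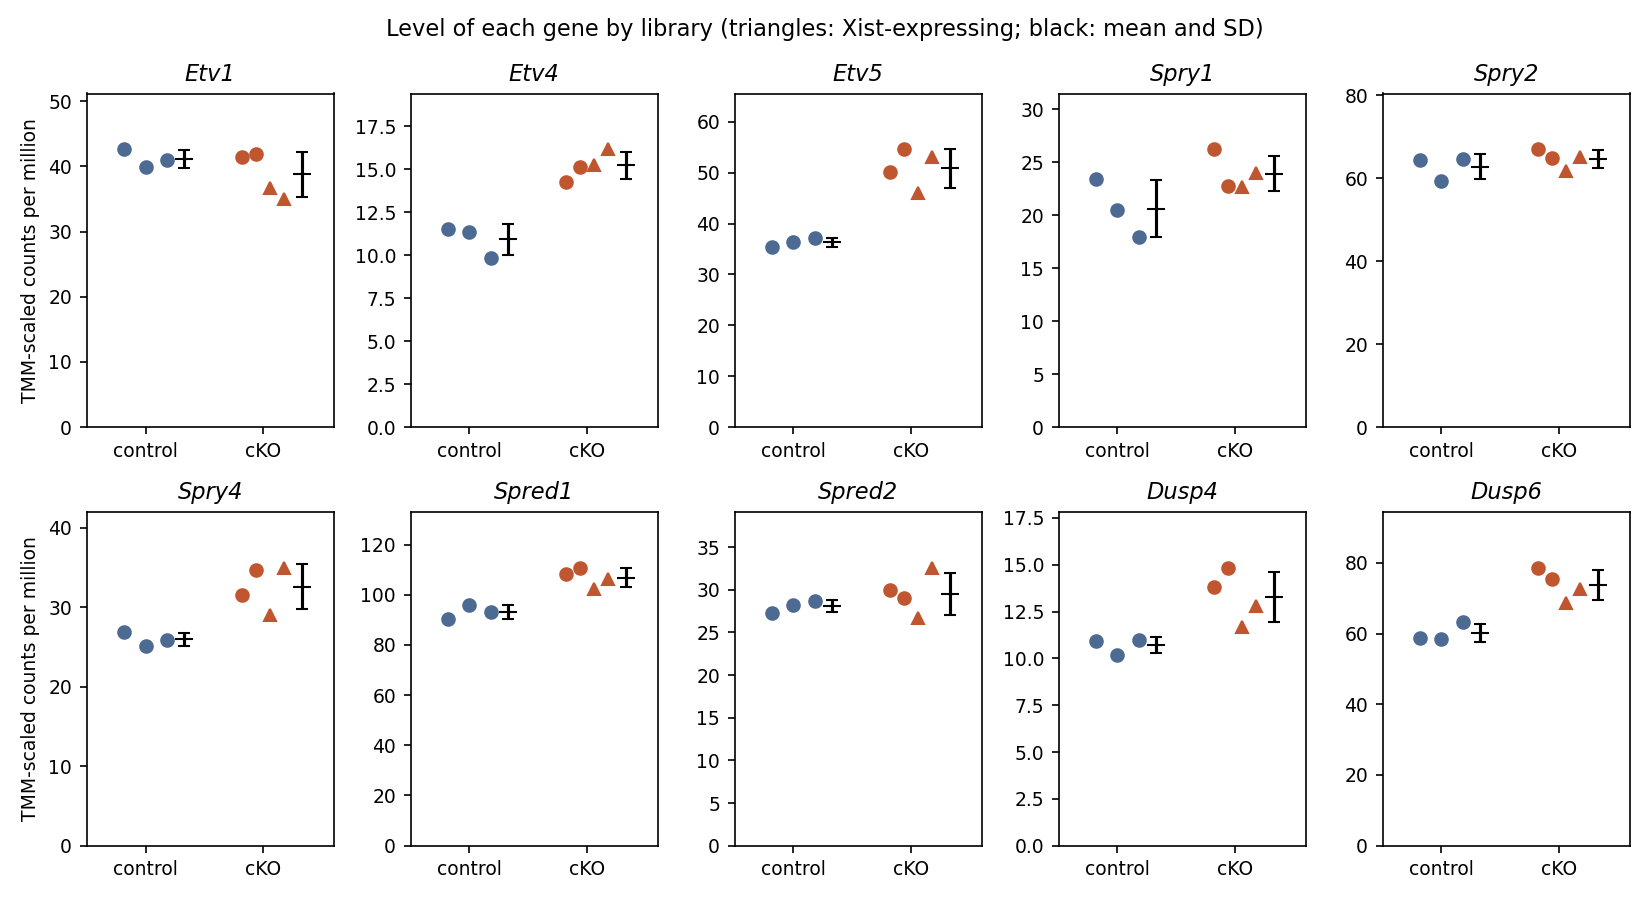
Level of each of the 10 genes in every library, in TMM-scaled CPM (vertical axes start at 0), for 3 control and 4 cKO libraries; triangles are the 2 Xist-expressing cKO libraries, and black bars give the mean and SD. For Etv4, Etv5, Spry4, Spred1, Dusp4 and Dusp6 every cKO point lies above every control point.

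Among the ETS factors, Etv5 (mm10 chromosome 16, 22381313 to 22439571, minus strand) lay at 35.4, 36.3 and 37.2 CPM in control replicates 1 to 3 and at 50.05, 54.6, 45.9 and 53.0 CPM in cKO replicates 1 to 4. The controls lay close together, and the lowest cKO library stood well above the highest of them. The log2 fold change was 0.49 (SE 0.059, 95% interval 0.36 to 0.62, adjusted p = 0.00776 by edgeR), and Etv5 ranked 21 of 14887 genes by p. Its call was kept whichever single library was left out, with log2 fold changes from 0.45 to 0.53 and adjusted p from 0.00525 to 0.0443 by edgeR. Without the Xist-expressing libraries Etv5 was the one member still called (0.53, SE 0.054, adjusted p = 0.0393 by edgeR, where 0.114% of all genes were called). Within F169 its log2 fold change was 0.49 (SE 0.072) with an adjusted p of 0.0638 by edgeR, and 0.134% of all genes were called there. In F169 6 of the 10 genes were higher at an unadjusted p under 0.05 by edgeR, against 7.48% of all genes. Etv5 was also the one member called with Y-linked expression as a term (0.53, SE 0.069, adjusted p = 0.0333 by edgeR), where 0.134% of all genes were called. No control lacked that expression, so the term sets the Xist-expressing libraries apart. This fit therefore estimates the same difference as the fit without them and is not a separate check.

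Etv4 (chromosome 11, 101769748 to 101785311, minus strand), which encodes a close relative of ETV5, was measured at 11.6, 11.3 and 9.86 CPM in control and at 14.3, 15.2, 15.3 and 16.2 CPM in cKO libraries. All cKO libraries were above all controls, and the difference had a log2 fold change of 0.48 (SE 0.075, 95% interval 0.31 to 0.65, adjusted p = 0.0238 by edgeR). The call was kept without cKO replicate 1 (adjusted p = 0.0334) and lost without any other library, at adjusted p of 0.0572, 0.0747 and 0.0777 without control replicates 1 to 3 and 0.085, 0.0713 and 0.0535 without cKO replicates 2 to 4, all by edgeR. Its log2 fold change was 0.43 (SE 0.094, adjusted p = 0.172 by edgeR) without the Xist-expressing libraries and 0.38 (SE 0.071, adjusted p = 0.117) within F169.

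Etv1 (chromosome 12, 38780082 to 38868216, plus strand) was not called. It lay at 42.7, 39.9 and 41.0 CPM in the controls, at 41.5 CPM in cKO replicate 1 and 41.9 CPM in replicate 2, and lower, at 36.7 and 34.98 CPM, in replicates 3 and 4. The lower cKO values were thus those of the 2 Xist-expressing libraries, and the other 2 fell within the range of the controls. Its fold change on the log2 scale was -0.09 (SE 0.066, 95% interval -0.23 to 0.06, adjusted p = 0.535 by edgeR). It was 0.02 (SE 0.049) without the Xist-expressing libraries and 0.02 (SE 0.050) with Y-linked expression as a term, so its sign depends on those libraries, and it was not called by any alternative.

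The ratio of family members within a library does not depend on how libraries are scaled, and 7 pairs, chosen after the values were seen, were compared with an exact two-sided permutation test over the 35 arrangements of the libraries. The log2 ratio of Etv5 to Etv1 went from -0.18 ± 0.075 in control to 0.39 ± 0.14 in cKO (SD, 3 and 4 libraries). The groups did not overlap, and the difference of 0.57 had an exact permutation p of 0.0286, the smallest that 35 arrangements allow, and 0.0667 after adjustment over the 7 pairs. The ratio of Etv4 to Etv1 shifted by a like amount, from -1.92 ± 0.12 to -1.35 ± 0.19, with the same exact permutation p of 0.0286 and adjusted 0.0667. The ratio of Etv5 to Etv4 was 1.74 ± 0.16 in control and 1.74 ± 0.12 in cKO (exact permutation p = 0.971). None of the 7 pairs passed after adjustment. The pairs without overlap already had the smallest p that 35 arrangements allow. After adjustment over the 7 pairs this p could have passed only if more of the pairs had reached it.

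**Figure D2:**
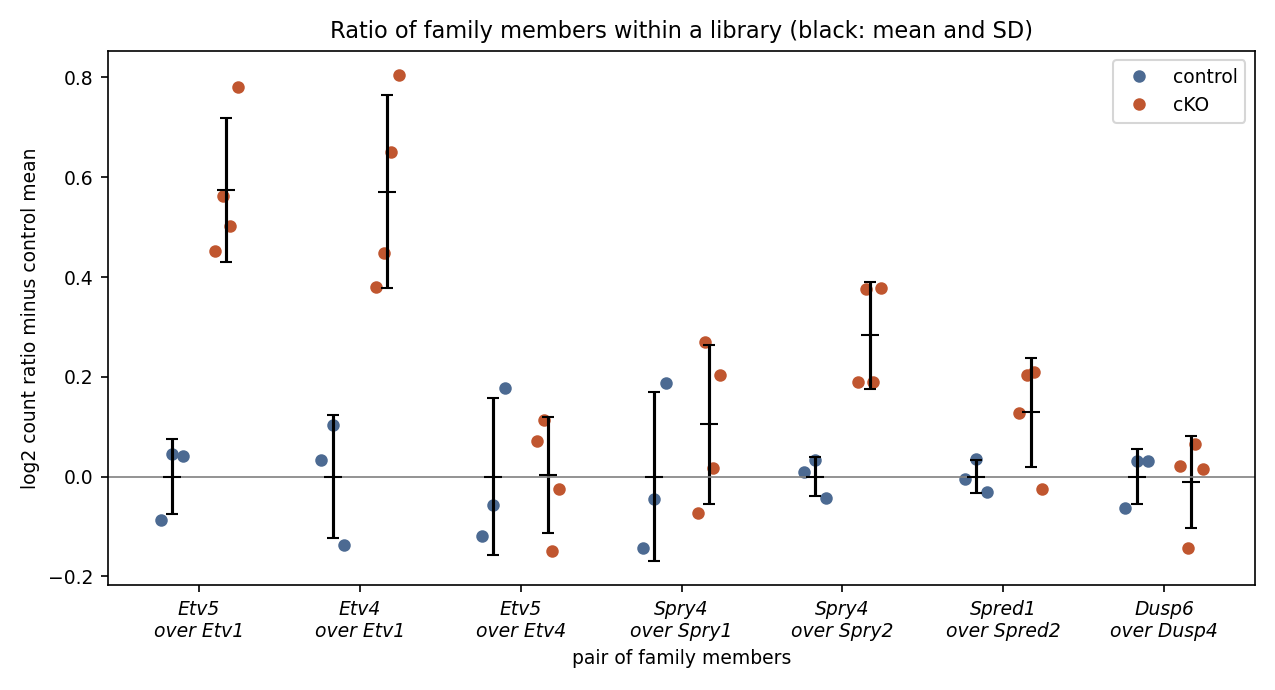
Log2 ratio of the counts of family members within each library, minus the mean of the 3 controls, for 7 pairs; points are libraries and black bars give the mean and SD. The ratios of Etv5 and Etv4 to Etv1 and of Spry4 to Spry2 do not overlap between groups, while Etv5 to Etv4 and Dusp6 to Dusp4 do.

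Sprouty proteins bind adaptors and RAF and are induced by the growth factor signals they restrain. Spry4 (chromosome 18, 38586265 to 38601269, minus strand) lay at 26.8, 25.1 and 25.9 CPM in control and at 31.6, 34.8, 29.1 and 35.01 CPM in cKO libraries. The groups did not overlap, yet the gene fell short of the threshold, with a log2 fold change of 0.33 (SE 0.068, 95% interval 0.18 to 0.48, adjusted p = 0.0573 by edgeR). DESeq2 called it (adjusted p = 0.00193), and so did edgeR without cKO replicate 3, its lowest cKO library (0.38, SE 0.055, adjusted p = 0.0465). Leaving out both Xist-expressing libraries gave 0.36 (SE 0.062) and an adjusted p of 0.114 by edgeR.

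Spry1 (chromosome 3, 37639947 to 37644600, plus strand) lay at 23.4, 20.5 and 17.98 CPM in control and at 26.3, 22.8, 22.7 and 24.0 CPM in cKO libraries. Control replicate 1 was above 2 of the cKO libraries, and with a coefficient of variation of 13.2% the controls were the most variable of any of the 10 genes. The log2 fold change of 0.21 (SE 0.089, 95% interval 0.02 to 0.41) did not pass (adjusted p = 0.248 by edgeR), and it ran from 0.13 without control replicate 3 to 0.32 without control replicate 1. Spry2 (chromosome 14, 105891947 to 105896820, minus strand), the Sprouty gene with the highest level per length, lay at 64.5, 59.4 and 64.5 CPM in control and at 67.0, 64.8, 61.7 and 65.2 CPM in cKO libraries. Its groups overlapped, and the log2 fold change of 0.04 (SE 0.044, adjusted p = 0.662 by edgeR) had a 95% interval of -0.06 to 0.14, so that a rise of more than 1.10-fold lies outside it. The log2 ratio of Spry4 to Spry2 went from -1.27 ± 0.039 to -0.99 ± 0.11 (exact permutation p = 0.0286, adjusted 0.0667), and that of Spry4 to Spry1 from 0.34 ± 0.17 to 0.44 ± 0.16 (exact permutation p = 0.429). Spry1 and Spry4 overlap annotated genes on the opposite strand (Gm42922 for Spry1, and the small RNA genes Gm27369 and Gm27804 for Spry4), and the counting strand is not stated, so reads of these partners cannot be told apart from theirs.

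Spred1 binds neurofibromin, the RAS GTPase-activating protein, and brings it to the membrane. Spred1 (chromosome 2, 117121071 to 117182278, plus strand) had 90.2, 95.8 and 93.0 CPM in control and 108.3, 110.8, 102.2 and 106.1 CPM in cKO libraries. Every cKO library was above every control, by a small margin set against a small spread (coefficients of variation of 3.05% and 3.40%). The log2 fold change was 0.20 (SE 0.038, 95% interval 0.12 to 0.29, adjusted p = 0.0444 by edgeR). This call stood just inside the threshold and was lost in each of the 7 fits that left out 1 control or cKO library, with log2 fold changes of 0.18 to 0.22 and adjusted p of 0.0674 to 0.144 by edgeR. Without the Xist-expressing libraries it had 0.24 (SE 0.044, adjusted p = 0.131 by edgeR) and within F169 0.21 (SE 0.048, adjusted p = 0.166).

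Spred2 (chromosome 11, 19924442 to 20022598, plus strand), a relative of Spred1 that also inhibits RAS signalling, lay at 27.3, 28.2 and 28.7 CPM in control and at 29.9, 29.0, 26.7 and 32.6 CPM in cKO libraries. The cKO libraries spread to both sides of the controls, and the log2 fold change was 0.08 (SE 0.065, 95% interval -0.07 to 0.22, adjusted p = 0.581 by edgeR). The log2 ratio of Spred1 to Spred2 was 1.73 ± 0.033 in control and 1.86 ± 0.11 in cKO, with overlapping groups (exact permutation p = 0.143, adjusted 0.25). A different response of the 2 Spred genes was thus not shown.

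DUSP6 is a cytoplasmic phosphatase that acts on ERK, and its transcript is a common readout of ERK activity. Dusp6 (chromosome 10, 99263231 to 99267490, plus strand) lay at 58.8, 58.5 and 63.2 CPM in control and at 78.7, 75.5, 68.7 and 72.7 CPM in cKO libraries. All cKO libraries exceeded all controls, and the log2 fold change was 0.30 (SE 0.051, 95% interval 0.18 to 0.41, adjusted p = 0.0342 by edgeR). The call was kept without cKO replicate 3 (adjusted p = 0.0407) and lost without control replicates 1 to 3 (0.107, 0.121 and 0.069) and cKO replicates 1, 2 and 4 (0.0525, 0.105 and 0.0594), all by edgeR. With both Xist-expressing libraries left out its rise was 0.36 on the log2 scale, with an adjusted p of 0.0751 by edgeR, and within F169 it was 0.34 (adjusted p = 0.0994).

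DUSP4 is a nuclear phosphatase induced by growth factor signals. Dusp4 (chromosome 8, 34807610 to 34819895, plus strand) lay at 10.9, 10.2 and 11.01 CPM in control and at 13.8, 14.8, 11.7 and 12.8 CPM in cKO libraries. The groups did not overlap, but cKO replicate 3 came near the controls, and the log2 fold change of 0.31 (SE 0.086, 95% interval 0.12 to 0.51) did not pass (adjusted p = 0.107 by edgeR, 0.0557 by DESeq2). It was 0.42 (SE 0.082, adjusted p = 0.141 by edgeR) without the Xist-expressing libraries. The log2 ratio of Dusp6 to Dusp4 was 2.49 ± 0.055 in control and 2.48 ± 0.091 in cKO (exact permutation p = 0.857).

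**Figure D3:**
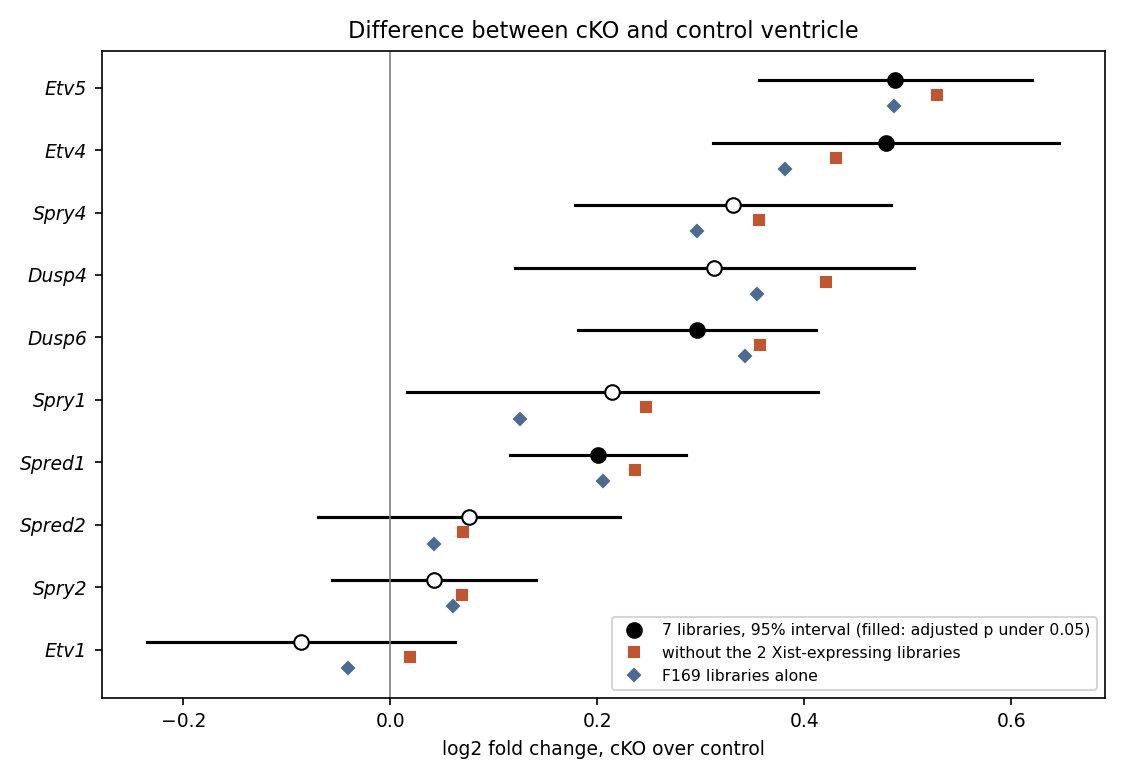
Log2 fold change of each gene, cKO over control; circles are the fit of 7 libraries with its 95% interval (filled where the adjusted p is under 0.05), squares the fit without the 2 Xist-expressing libraries and diamonds the F169 libraries alone. Etv5 and Etv4 are highest in the fit of all 7, at 0.49 and 0.48, and Etv1 is the one gene that changes sign, from -0.09 to 0.02.

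Across libraries the cKO replicates did not stand equally far from control. Averaged over the 10 genes, cKO replicates 1 to 4 lay 0.27, 0.28, 0.13 and 0.25 above the control mean on the log2 scale, and the controls between -0.02 and 0.03. Replicate 3 was the lowest cKO library for 8 of the 10 genes, all but Etv1 and Etv4. It expresses Xist, as does replicate 4, which was the lowest for Etv1 alone and the highest for 3 genes. The called genes of the lists below shared the lower position of replicate 3. Among the cKO libraries Fos (7.41 CPM), Epha2 (24.8 CPM), Phlda1 (28.15 CPM) and Hbegf (22.7 CPM) were each lowest there. Whether genes outside the lists share it was not tested. Replicate 3 also had the fewest counts in total, 28921922, but cKO replicate 1, at 0.27 above the control mean, had nearly as few (29290338). The part of depth was not tested.

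**Figure D4:**
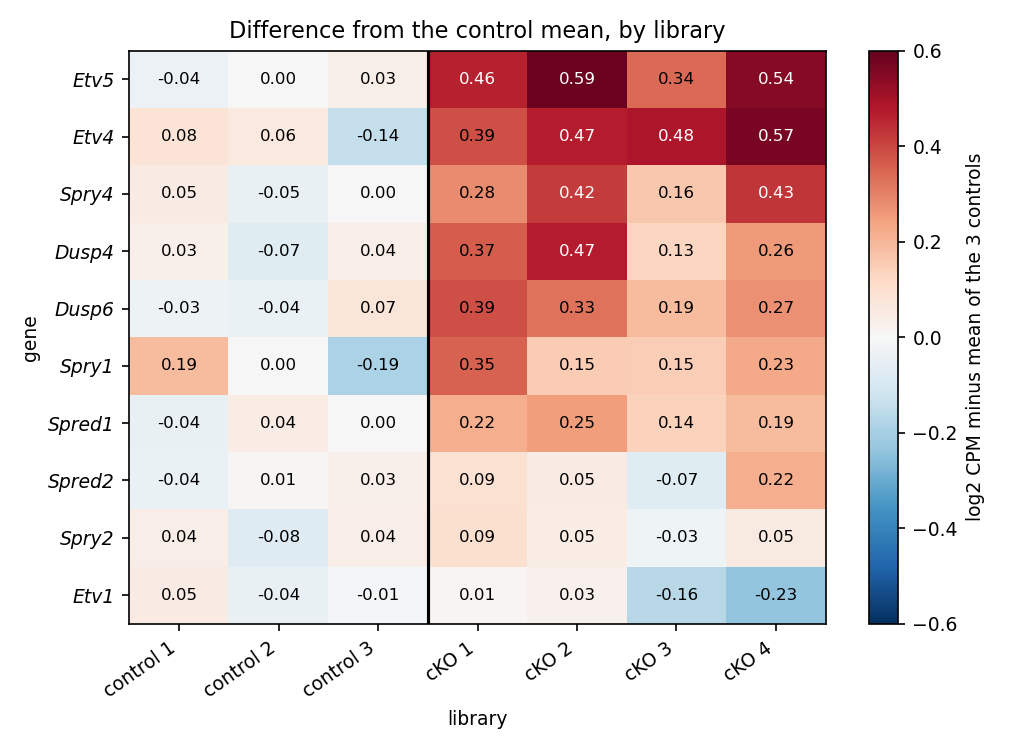
Log2 CPM of each gene in each library minus the mean of the 3 controls; rows are the 10 genes in order of their fold change and columns the 7 libraries. Values in cKO replicate 3 run from -0.16 to 0.48 and are the lowest of the cKO libraries in all rows but Etv4 and Etv1.

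Per kilobase of merged exons the controls ordered the genes as Spry2 (30.1 ± 1.41 CPM per kb), Dusp6 (19.2 ± 0.834), Spred1 (13.7 ± 0.418), Etv5 (8.85 ± 0.213), Spry1 (7.10 ± 0.936), Spred2 (6.07 ± 0.153), Spry4 (5.46 ± 0.179), Dusp4 (3.91 ± 0.165), Etv4 (3.52 ± 0.298) and Etv1 (3.10 ± 0.104; SD, 3 libraries). Among neighbours in that order the ranges of the libraries overlapped between Spry1 and Spred2 and between Etv4 and Etv1. The 2 genes with the lowest level per length were thus Etv4, which rose, and Etv1, which was not called. In cKO ventricle the first 5 places were the same, while Spry4 (6.86 ± 0.593 CPM per kb) came before Spred2 (6.40 ± 0.531) and Etv4 (4.90 ± 0.249) before Dusp4 (4.85 ± 0.493; SD, 4 libraries), but the cKO libraries overlapped within both pairs. The exon lengths come from GENCODE M21 and include exons that the ventricle may not use, which would lower the level of a gene with many such exons, such as Etv1 with 13.3 kb.

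Other genes that ERK signalling induces were also higher in part. Of 20 tested in a list of 22, 3 were called higher and 0 lower, against 0.766% and 0.322% of all genes. The median log2 fold change was 0.15 and all 20 values were positive, against 47.9% of all genes. Fos, an immediate early gene, lay at 4.03, 3.32 and 3.31 CPM in control and at 7.76, 10.1, 7.41 and 7.92 CPM in cKO (1.23 on the log2 scale, SE 0.13, adjusted p = 0.00534 by edgeR). Epha2, an ephrin receptor, went from 20.6 ± 0.507 to 28.4 ± 2.55 CPM (0.46, SE 0.071), and Phlda1, a pleckstrin homology protein, from 22.6 ± 3.07 to 33.7 ± 4.13 CPM (0.58, SE 0.11). The closest relatives of the 10 genes in this list were not called: Dusp5 had 0.21 (SE 0.11), Dusp7 0.15 (SE 0.078), Dusp9 0.27 (SE 0.12), Spred3 0.06 (SE 0.12), and Il17rd, the FGF signalling inhibitor SEF, 0.10 (SE 0.082). Fos was called by edgeR without the Xist-expressing libraries (1.33, adjusted p = 0.0393), in the fit with a Y-linked term (1.33, adjusted p = 0.0173) and in 7 of 7 fits with 1 library left out, but not within F169 (1.21, adjusted p = 0.0638). Epha2 was called without the Xist-expressing libraries (0.53, adjusted p = 0.0393 by edgeR) but not with the Y-linked term (0.53, adjusted p = 0.0556) or within F169 (0.46, adjusted p = 0.132), and it lost its call without any library other than cKO replicate 1 or 3 (adjusted p of 0.051 to 0.0892). Phlda1 was not called without the Xist-expressing libraries (0.65, adjusted p = 0.109 by edgeR), with the Y-linked term or within F169, and it lost its call without any library other than control replicate 1 or cKO replicate 3 (adjusted p of 0.0731 to 0.154).

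Ligands, receptors and kinases above these genes were called about as often as all genes, of which 1.09% were called. Of 27 tested genes for ERBB, PDGF, insulin and other receptors and their ligands, 1 was called higher and 0 lower (median -0.03), and 2 were higher and 4 lower at an unadjusted p under 0.05 by edgeR, a threshold that 17.9% of all genes passed. This was Hbegf, an ERBB ligand shed from the membrane, at 19.5, 18.04 and 16.9 CPM in control and 23.8, 26.2, 22.7 and 23.5 CPM in cKO (0.41, SE 0.068, adjusted p = 0.0304 by edgeR); it was not called without the Xist-expressing libraries (0.47, adjusted p = 0.109 by edgeR), nor in any of the 7 fits with 1 library left out. The insulin receptor gene Insr (205 ± 8.12 to 185 ± 6.50 CPM, -0.15, SE 0.041, adjusted p = 0.101 by edgeR) and the neuregulin receptor gene Erbb4 (85.6 to 75.5 CPM, -0.18, SE 0.048, adjusted p = 0.1001 by edgeR) were called lower by DESeq2 alone, which called 624 genes in all. For both, every cKO library lay below every control. So it was for 3 of the 27 genes, against 8.28% of all genes, while 2 lay above in every cKO library, against 8.67%. Without the Xist-expressing libraries both had -0.14 to -0.15, with adjusted p of 0.367 for Insr and 0.359 for Erbb4 by edgeR. The Insr relative Igf1r (-0.06, SE 0.051) and the growth factor Igf2 (-0.03, SE 0.040) were not called by either tool.

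Of 18 tested FGF ligands and receptors, 0 were called by edgeR, and the 3 with an unadjusted p under 0.05 were a share close to the 17.9% of all genes. DESeq2 called 1, Fgf11, whose product lies inside the cell and does not act through FGF receptors (12.3 ± 2.63 to 8.94 ± 0.897 CPM, -0.46, SE 0.13, adjusted p = 0.123 by edgeR). It was also called by edgeR with the F code as a term (-0.42, adjusted p = 0.0382), and not without the Xist-expressing libraries (-0.51, adjusted p = 0.313). Fgfr1, the FGF receptor gene with the highest count, had 68.8 ± 0.313 CPM in control and 72.2 ± 4.23 CPM in cKO (0.07, SE 0.047), and the ligand gene Fgf1 31.3 ± 1.251 and 34.4 ± 0.845 CPM (0.14, SE 0.044, adjusted p = 0.152 by edgeR). Fgf5 stayed under 1 CPM (0.534 ± 0.0441 and 0.787 ± 0.0592). Of 32 genes from RAS to ERK, 0 were called by edgeR or DESeq2 (4 at an unadjusted p under 0.05 by edgeR). The adaptor Frs2 (0.11, SE 0.037), Hras (0.13, SE 0.045) and the ubiquitin ligase Cblb (-0.10, SE 0.042) had the smallest p.

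Of other members of both families none was called, which with 1.09% of all genes called and lists of this size is near the background. Of 18 tested ETS factors, 0 were called by edgeR or DESeq2 (1 at an unadjusted p under 0.05 by edgeR), and the median log2 fold change was 0.01. Ets1 had 175 ± 12.1 CPM in control and 169.5 ± 3.13 CPM in cKO, Ets2 158 ± 8.08 and 156 ± 4.67 CPM, and Gabpa 135 ± 2.34 and 135 ± 6.72 CPM. Spdef had the smallest p (adjusted p = 0.0872 by edgeR) at under 0.5 CPM. Of 15 other tested dual-specificity phosphatase genes, 0 were called by edgeR or DESeq2 (1 at an unadjusted p under 0.05 by edgeR), with a median of -0.02. Dusp1, Dusp2, Dusp5, Dusp7 and Dusp9 were counted among the ERK-induced genes instead, not called and at 0.04 to 0.27. Dusp27, which encodes a muscle pseudophosphatase, had 148 ± 6.01 and 135 ± 7.55 CPM (-0.13, SE 0.049). Dusp3 had 0.08 (SE 0.040), and Dusp10, whose product acts on JNK and p38, had -0.15 (SE 0.071).

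**Figure D5:**
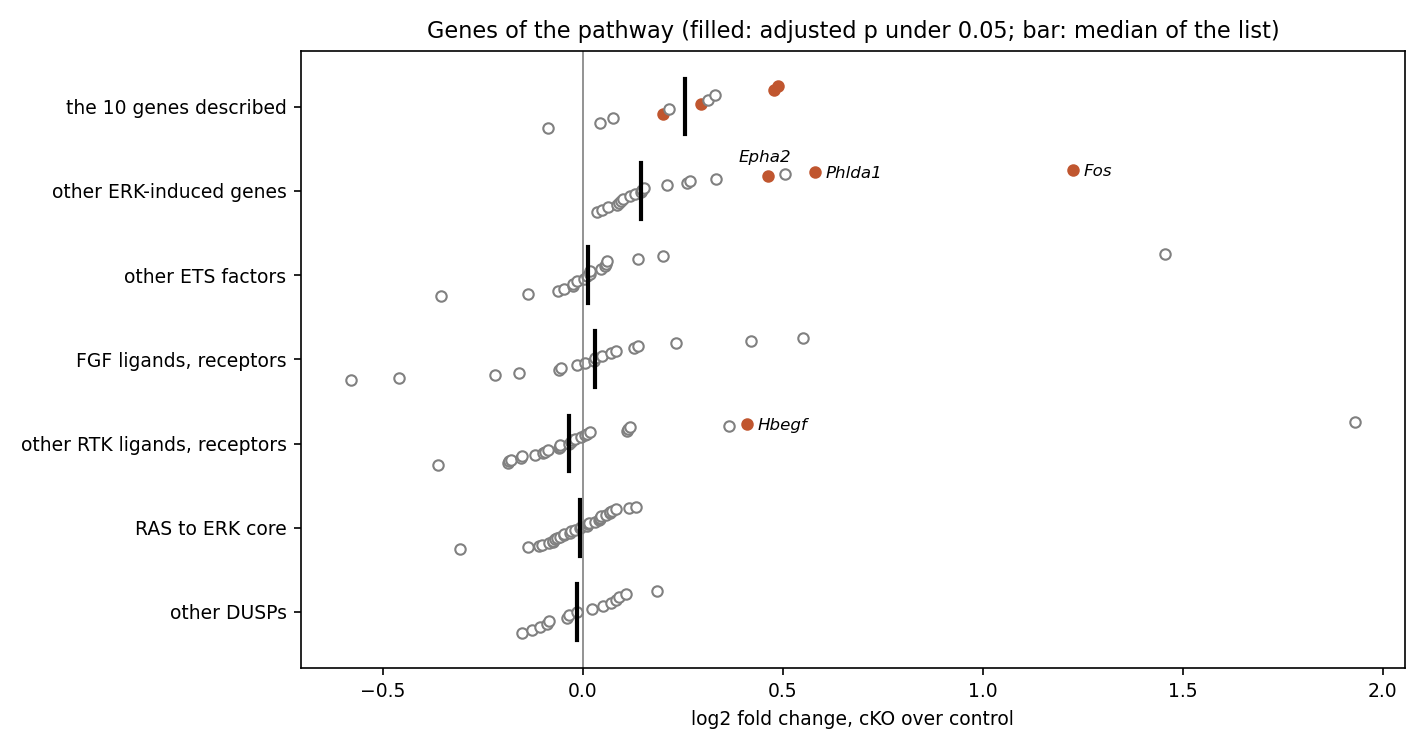
Log2 fold changes (cKO over control) of the tested genes of each list; filled points are called at an adjusted p under 0.05 and black bars give the median of the list. The 10 genes described have a median of 0.26 and the other ERK-induced genes 0.15, while the medians of the other lists lie between -0.03 and 0.03.

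Markers of other cells in the ventricle were measured beside these genes. The summed level of 9 macrophage and leukocyte markers, led by Csf1r, Lyz2 and Mrc1, ran from 129 to 134.5 CPM in control and from 144.9 to 156 CPM in cKO libraries, without overlap, with 1 of 9 called higher, C1qb (0.45 on the log2 scale, adjusted p = 0.0425 by edgeR; 0.43 and 0.238 without the Xist-expressing libraries). The median log2 fold change of the list was 0.39, and all its genes but Mrc1 were positive. For C1qb, C1qc, Cd68, Lyz2 and Cx3cr1 every cKO library lay above every control, against 8.67% of all genes. Mrc1 went the other way, lower in every cKO library than in every control (27.7 to 24.0 CPM, -0.21, adjusted p = 0.0895 by edgeR). The part of this list in the changes of the 10 genes was not tested. The summed levels of markers of endothelium (1225 to 1305 and 1298 to 1339 CPM), fibroblasts (3399 to 4099 and 3181 to 4238 CPM), epicardium (194.9 to 228.8 and 169.8 to 214.5 CPM), mural cells (1065 to 1231 and 1219 to 1838 CPM), red cells (1871 to 3623 and 2338 to 2603 CPM) and atrial and sinus node myocardium (1584 to 1801 and 1694 to 1897 CPM) overlapped between control and cKO, with 0 members called by edgeR. In the mural list and in the endothelial list 3 of 4 cKO libraries lay above every control. The leading mural gene Acta2, smooth muscle actin, made up most of the mural sum. It was higher in every cKO library (808.5 to 1099 CPM, 0.44, SE 0.13, adjusted p = 0.118 by edgeR). The rest of the mural list overlapped between the groups and was mixed in sign. Tagln (0.64), Pdgfrb (0.11) and Cspg4 (0.08) were positive, and Rgs5 (-0.38) and Myh11 (-0.53) negative. In the endothelial list, which also holds endocardial markers, Npr3 was higher in every cKO library (212.4 to 259.8 CPM, 0.29, SE 0.077, adjusted p = 0.1001 by edgeR). So were Emcn (0.17, SE 0.047) and Nfatc1 (0.10, SE 0.046), a position that 8.67% of all genes held. Cdh5 (-0.01), Pecam1 (0.03), Tek (0.11), Kdr (-0.09) and Egfl7 (-0.02) overlapped between the groups. The part of either list in the changes of the 10 genes was not tested. Neural crest and neuronal markers, 4 of 7 of them tested, summed to 11.2 to 16.3 CPM in control and 11.5 to 13.2 CPM in cKO, and epithelial markers, 3 of 6 tested, to 18.8 to 24.1 and 22.5 to 27.7 CPM.

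The genes whose profile over the 7 libraries was most like the mean profile of the 10 were Eaf1, Cttnbp2nl, Spty2d1, Tmcc3 and Necap1, out of 12739 with an average of at least 1 CPM. The root-mean-square difference of their centred log2 CPM from that mean was 0.0332 to 0.0409, against 0.0437 for Spred1, the nearest of the 10, and 0.176 for Etv1, the farthest. Necap1 had 53.6 CPM in control and 64.0 CPM in cKO (0.25 on the log2 scale, SE 0.036) and Cttnbp2nl from 103 to 120 CPM (0.23, SE 0.036).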

How the data were processed

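RNA was taken from whole ventricle and made into libraries with a directional kit, per the labels' protocols. The authors deposited estimated counts per gene, raw per the file name; 30.3% of the values were not whole, and those of the 10 genes lay within 0.01 of a whole count. The submitters' processing notes name STAR 2.4.2a, HTSeq 0.6.1 and build mm10, without a role or order. Columns were matched to samples by the code in the title. The last value column, which matched no sample, equalled the row sum of the 7 libraries in all 15358 genes (tolerance 1e-06) and was not used as a library.

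The estimated counts were rounded, filtered with filterByExpr (minimum count 10; 14887 genes kept), TMM-scaled and compared with glmQLFTest of edgeR 4.0.16 (R 4.3.3), with Benjamini-Hochberg adjustment over all genes; this step was tested on simulated data. SE is the log2 fold change over the root of F, and intervals use the test's degrees of freedom. Within-library count ratios were compared by exact permutation. Exon lengths are from GENCODE M21 (GRCm38). Alternatives were DESeq2 1.42.0, limma 3.58.1 (voom), other size factors, no filter, replicate block, title code, sex terms and libraries left out. The replicate numbers did not pair the libraries.

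The 10 genes, the lists and the alternatives were chosen with earlier results of these data known. Named are the 10 genes, Lemd2, called or leading genes of each list, and the 5 genes most like them in profile. Dusp1, Dusp2, Dusp5, Dusp7, Dusp9, Spred3, Il17rd, Ets1, Ets2 and Gabpa fall outside this rule and were named after their values were seen. The same holds for cell markers that were neither called nor among the leading genes of their list. Nothing says that the libraries are separate litters, and the p-values therefore reflect variation among these samples, which may be technical. The labels list 8 samples, and 7 libraries entered every fit unless stated.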

Additional observations from a re-analysis of the deposited data

How the results depend on the processing

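The direction of Etv4, Etv5, Spry1, Spry2, Spry4, Spred1, Spred2, Dusp4, Dusp6 and Lemd2 held in all 17 alternatives, and Lemd2 was called in each (log2 fold change -1.19 to -1.01). The number of genes called, 162, was 624 with DESeq2, 13 with the replicate block, 20 in F169 libraries, 20 when Y-linked expression was a term, 17 when both Xist-expressing libraries were dropped, and 28 to 133 with 1 library left out. Of the 10 genes, 4 were called, against 0 with the replicate block (7 at an unadjusted p under 0.05, edgeR), 0 in F169 libraries (6), 1 with the Y-linked term, 1 when both Xist-expressing libraries were dropped, and 1 to 3 with 1 library left out; Etv5 was called in each fit with 1 call. Etv5 was called in 15 of 17 alternatives, Etv4 and Dusp6 in 7, Spred1 in 5 and Spry4 in 2. The Y-linked term and the dropping of both Xist-expressing libraries estimate the same difference and are not separate checks. Spred1 also lost its call with upper-quartile factors (0.19, adjusted p = 0.0511 by edgeR). The genes of the 6 pathway lists held 4 calls, 7 with DESeq2, 0 with the block, 0 in F169 libraries, 1 with the Y-linked term, 2 when both Xist-expressing libraries were dropped, and 1 to 3 with 1 library left out. The cause of these losses was not tested. At an unadjusted p under 0.05 by edgeR, 22 of 130 pathway genes passed in the main fit, against 17.9% of all genes. The count was also 22 of 130 with the block, and 18 of 132 in F169 libraries. The share of all genes at that threshold is not given for the block, so its unadjusted counts cannot be weighed. Same-numbered libraries did not deviate together (correlations of 0.0386, -0.0751 and -0.0791 across genes), and the numbers were not taken to pair them. Between control and cKO libraries that share a title code, the F191 pair correlated at 0.224 and the F169 pairs at -0.0751 to 0.189. With the title code as a term 214 genes, 4 of the 10 and 5 pathway genes were called. With the block the log2 fold changes were 0.47 for Etv5, 0.45 for Etv4, 0.30 for Dusp6 and 0.20 for Spred1. In F191, with a single library on each side and no test, cKO minus control was 0.51 for Etv5, 0.71 for Etv4, 0.20 for Dusp6, 0.19 for Spred1 and -0.23 for Etv1 in log2 CPM. At 338 to 596 counts per library, Dusp4 and Etv4 carry the largest counting error of the 10.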
